A study of Mus musculus with 12 samples.

Results

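Collagens, laminins and the proteins of the vascular basement membrane were described as a group of 53 genes in ribosome-bound and total RNA from mouse white matter. The members were chosen by name. Of the 24060 genes listed, 65 had the symbol of a collagen chain or a laminin chain or were Nid1, Nid2, Hspg2, Agrn, Fn1, Sparc, Vtn, Dcn, Lum or Bgn, and 53 of these had at least 10 counts in at least 3 of the 12 libraries. The group held 32 collagen genes, 11 laminin genes and 10 others. Members at the edge of this rule were Col6a5, Lama1, Col4a3 and Col4a6, with 10 counts in 3 libraries. Just outside it, with 10 counts in 2 libraries, stood Col26a1, Col5a2, Col24a1 and Col5a3. Col26a1 was left out although it had 1970 counts in all, since 1887 of them lay in 1 CFD IP library.

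All mice carried the genotype Tie2-Cre:Rpl22-HA, in which Cre recombinase under the Tie2 promoter adds a hemagglutinin (HA) tag to the ribosomal protein Rpl22. The promoter is active in endothelial cells and also in part of the blood cell lineage, so the tag marks a lineage rather than a single cell type. The mice were male. Fat supplied 10% of kcal in the control diet (CFD; animals 489, 555 and 556) and 60% in the high-fat one (HFD; animals 516, 517 and 676). No untagged mice were among the samples, and the labels give no age. White matter of each mouse gave an anti-HA pulldown library (IP) and an input library, so that 4 groups of 3 libraries were compared.

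A basement membrane is a thin sheet of matrix that surrounds endothelial cells and pericytes and that, in brain, also separates the vessel from astrocyte endfeet. Laminins, each made of an alpha, a beta and a gamma chain, and collagen IV form its networks, which nidogens and the heparan sulfate proteoglycans perlecan and agrin connect. Fibrillar collagens and the small proteoglycans decorin, lumican and biglycan are instead known for the interstitial matrix made by fibroblasts, which in brain lie in the meninges and around larger vessels.

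Library totals ranged from 19567186 to 33660708 counts. The 45S ribosomal RNA precursor Rn45s took 38.7% to 42.3% of counts in CFD IP, 17.1% to 19.1% in HFD IP, and 6.34% to 14.2% in the inputs, so diet and this share moved together among the IP libraries. Defining endothelial markers were sparse. Tek, the gene of Tie2, had 0, 0 and 80 counts in the CFD IP libraries and 0, 1 and 43 in the HFD IP libraries, and Cldn5, a tight junction gene of brain endothelium, had 0, 0 and 9 against 114, 0 and 0. The summed level of 18 endothelial markers ranged from 7.86 to 220.5 CPM (counts scaled to the TMM-adjusted total of the library) in CFD IP, 21.0 to 89.5 CPM in HFD IP, 21.8 to 48.6 CPM in CFD input and 17.7 to 62.6 CPM in HFD input. The 12 neuron markers summed to 12968 CPM or more in every library, and Mbp, a myelin gene of oligodendrocytes, had at least 37610 counts in each. Other endothelial markers were high in single IP libraries. Egfl7 had 37, 25 and 3650 counts in CFD IP and Mfsd2a 7, 1705 and 13. Slco1a4 had 1667, 2 and 50 counts in HFD IP. Of 14 endothelial markers tested, edgeR fitted 8 higher and 6 lower in CFD IP than in input (49.1% and 50.6% of all genes). In HFD it fitted 7 higher and 7 lower (49.4% and 50.5%). Tek and Cldn5 were at 0 in several IP libraries while neuronal and myelin genes were abundant in all. The fraction is thus called IP rather than endothelial RNA.

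A pair of libraries stood apart from the rest for these genes. The HFD input of animal 676 detected 16427 genes, the most of any library, had 133 counts of Xist, an RNA of female cells, and was the only library with no member at 0. The HFD IP of animal 516 held 13145 counts of the laminin chain gene Lamc1. Fold changes that rest on either library are also given without that animal. In bulk samples, fewer cells of a type and less RNA per cell cannot be told apart.

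**Figure D1:**
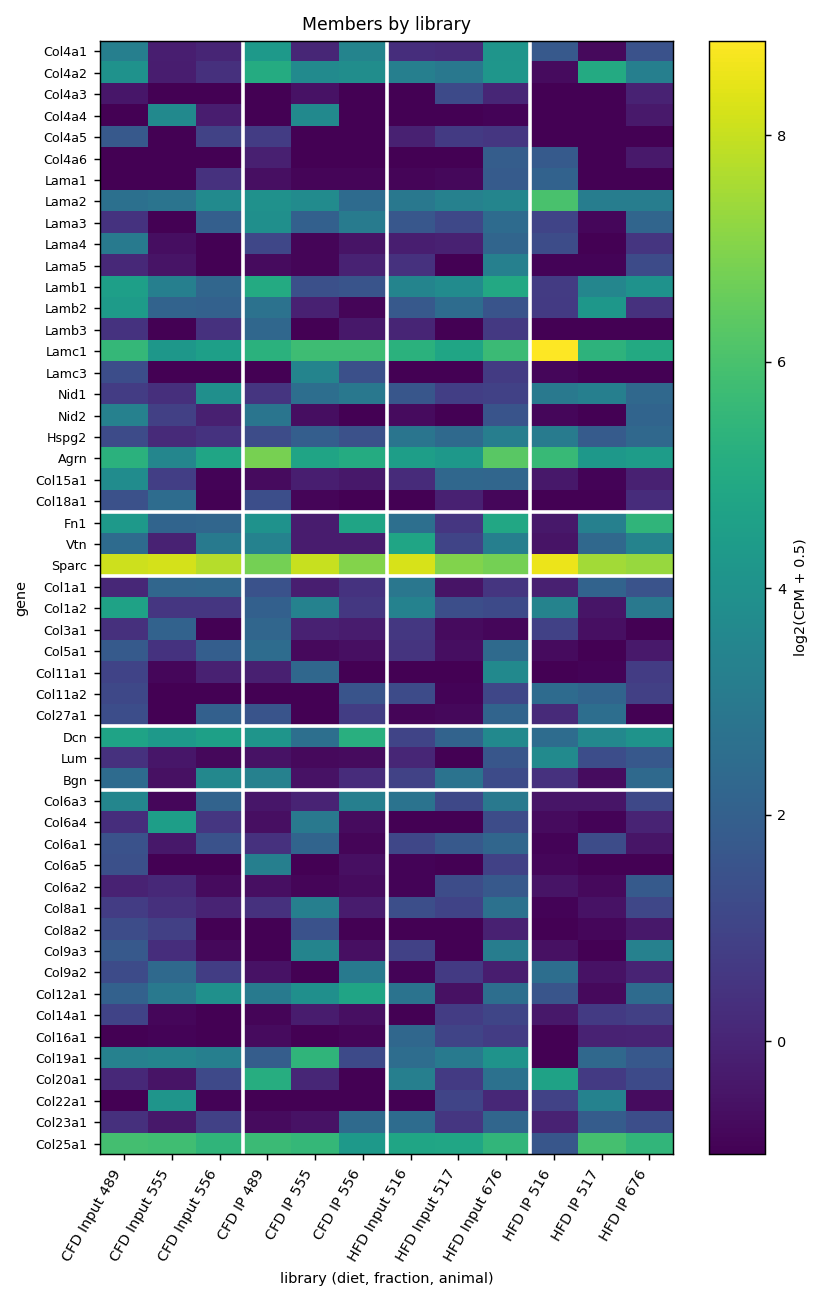
Level of 52 of the 53 members (rows, grouped from top to bottom as basement membrane, adhesive and matricellular glycoproteins, fibrillar collagens, small proteoglycans and other collagens) in the 12 libraries (columns), as log2(CPM + 0.5). Sparc, Lamc1, Agrn and Col25a1 are bright across nearly all columns, while most members are bright in a few libraries that differ from gene to gene.

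The members spanned a wide range of levels. Sparc, a matricellular glycoprotein that binds collagen, had a median of 73.7 CPM per kilobase of transcript over the 12 libraries, followed by Dcn at 7.46, Col25a1 at 6.54, Lamc1 at 5.18, Agrn at 3.60, Vtn at 2.71, Lamb1 at 1.83 and Col4a2 at 1.66 CPM per kilobase. Sparc and Agrn are also made by astrocytes, and Col25a1, a membrane collagen, is known from neurons. In each library Sparc held between 18.9% and 56.6% of all member counts. At the other end, Col4a4, Lamc3 and Col4a3 were at 0 in 7 libraries and Col4a6 in 8.

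Counts of 0 and counts from 1 library were more frequent among the members than among all genes. A count of 0 in at least 1 library was found for 28 of the 52 members that could be tested (53.8%), against 28.9% of all 14354 genes tested. At least 10 counts in all 12 libraries were found for 9 members (17.3%), against 58.8% of all genes tested. These were Sparc, Lamc1, Col25a1, Agrn, Dcn, Lama2, Lamb1, Nid1 and Hspg2. A single library held more than 50% of the summed CPM of 12 members (23.1%), against 9.57% of all genes tested. The median biological coefficient of variation, the spread between animals that edgeR estimates, was 1.48 for the members and 0.858 for all genes, and ranged from 0.395 for Sparc to 2.25. The members were also expressed at a lower level, with a median log2 CPM of 1.13 against 3.91, and the comparison was not matched for level.

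Collagen IV chains assemble into triple helices, and the alpha1 and alpha2 chains, from Col4a1 and Col4a2, are known as those of vascular basement membrane in general. In counts, Col4a2 was 363, 10 and 22 in CFD input, 623, 258 and 242 in CFD IP, 320, 198 and 486 in HFD input and 3, 966 and 291 in HFD IP. Col4a1 was 208, 11 and 14 in CFD input, 381, 11 and 185 in CFD IP, 26, 18 and 474 in HFD input and 82, 3 and 74 in HFD IP. For both genes the groups overlapped in every comparison of diet and of fraction.

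The ratio of Col4a2 to Col4a1 per kilobase ran from 0.0377 in the HFD IP of animal 516 to 331 in the HFD IP of animal 517, and lay between 0.936 and 1.80 in 6 libraries, the 3 CFD inputs, CFD IP 489 and 556 and HFD input 676. The genes lie head to head, Col4a1 at chr8:11198423-11312889 and Col4a2 at chr8:11312805-11449287 (GRCm38), and their annotated ends overlap by 85 bases. In each of the 3 CFD animals the IP held more Col4a2 than the input, with log2 ratios (of CPM + 0.5) of 1.03, 3.93 and 3.43. The groups still overlapped, and edgeR fitted a log2 fold change of 1.80 (SE 1.41, adjusted p = 0.645). In HFD the ratios were -3.96, 2.08 and -0.92.

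The other collagen IV chains are known from kidney and other specialised basement membranes. Col4a4 had 349 counts in the input and 251 in the IP of animal 555, and at most 10 in each of the other libraries. Its lower value in HFD input than in CFD input had an edgeR adjusted p = 1.0 (unadjusted p = 0.0286), and 97.1% of the CFD input level came from that animal. Col4a5 had 67, 0 and 39 counts in CFD input, 23, 0 and 0 in CFD IP, 16, 30 and 27 in HFD input and 0 in all HFD IP libraries. Set against a floor of 3 counts per library, HFD IP was at least 8.46-fold lower than HFD input for Col4a5, or at least 7.15-fold without animal 517, which was the highest. For this edgeR gave an adjusted p = 0.709 (unadjusted p = 0.0314).

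Among laminin alpha chains, Lama2, the chain known from astrocytes, fibroblasts and muscle and mutated in a congenital muscular dystrophy with white matter change, led per kilobase in 10 of 12 libraries. Its counts were 131, 181 and 344 in CFD input, 297, 268 and 87 in CFD IP, 256, 264 and 296 in HFD input and 1824, 260 and 280 in HFD IP. Apart from the IP of animal 516, at 63.2 CPM, the libraries lay between 4.87 and 15.4 CPM. Lama4 and Lama5, the alpha chains of endothelial laminins, were low. Lama4 had 175, 4 and 0 counts in CFD input, 32, 1 and 4 in CFD IP, 14, 12 and 116 in HFD input and 55, 0 and 31 in HFD IP. Lama5 had 257 counts in the HFD input and 62 in the HFD IP of animal 676, and at most 30 in any other library. For Lama4, 3 of the 6 IP libraries had 4 counts or fewer.

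Lama3, the alpha chain of epithelial laminin 332, had 20, 0 and 93 counts in CFD input and 282, 73 and 144 in CFD IP. Every CFD IP library was above every CFD input in CPM. The gap was narrow, at 3.53 CPM (73 counts) in the IP of animal 555 and 3.39 CPM (93 counts) in the input of animal 556. That IP had fewer counts from a larger total, so the order rests on the TMM scaling. In HFD it had 95, 46 and 139 counts in input and 44, 2 and 135 in IP. In log2 units IP differed from input by 2.62 in CFD (SE 1.89, edgeR adjusted p = 0.605) and by -0.69 in HFD (SE 1.79, edgeR adjusted p = 0.984).

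Laminin beta chains were led by Lamb1 in 11 of 12 libraries. Lamb1 had 535, 258 and 115 counts in CFD input, 611, 44 and 43 in CFD IP, 370, 360 and 857 in HFD input and 33, 331 and 520 in HFD IP. Lamb2, the beta chain of mature vessel walls, had 480, 111 and 99 counts in CFD input, 117, 9 and 1 in CFD IP, 104, 141 and 69 in HFD input and 32, 550 and 27 in HFD IP. For both genes the groups overlapped in all comparisons of diet and of fraction. Lamb3, a further chain of laminin 332, had 84, 0 and 5 counts in CFD IP and 0 in all HFD IP libraries. This was at least 15.7-fold lower against the floor, or at least 1.43-fold without animal 489, with an edgeR adjusted p = 0.401 (unadjusted p = 0.0247).

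Of the laminin gamma chains, Lamc1 encodes gamma1, the chain of most laminins, and Lamc3 gamma3. Lamc1 held 80.7% to 100% of the summed level of these genes per kilobase in the 12 libraries. Lamc1 (chr1:153218922-153332786) had 1069, 509 and 627 counts in CFD input, 735, 1137 and 960 in CFD IP, 1372, 752 and 1433 in HFD input and 13145, 1239 and 1011 in HFD IP. In CPM the HFD IP libraries stood at 455.5, 40.9 and 30.8, and the CFD IP libraries at 38.0, 54.9 and 53.8, so 1 library lay far above the other 11. The edgeR fold change on the log2 scale was 1.85 between HFD IP and CFD IP (SE 0.715, unadjusted p = 0.0170, edgeR adjusted p = 0.376) and 2.18 between HFD IP and HFD input (SE 0.723, unadjusted p = 0.00634, edgeR adjusted p = 0.583). Without animal 516 these values were -0.47 and -0.13.

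In that IP library the chains of laminin were far from equal. Lamc1 and Lamc3 together were, per kilobase, 151 times the beta chains and 8.11 times the alpha chains, against 0.655 to 20.0 times and 1.52 to 6.01 times in the other 11 libraries. Its Lama2 count of 1824 was also the highest of all libraries, and its Lamb1 count of 33 the lowest. Lamc3, of which 211 of 330 counts lay in the CFD IP of animal 555, had 0, 211 and 38 counts in CFD IP and 2, 0 and 0 in HFD IP. Its edgeR adjusted p was 0.452 (unadjusted p = 0.0482).

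**Figure D2:**
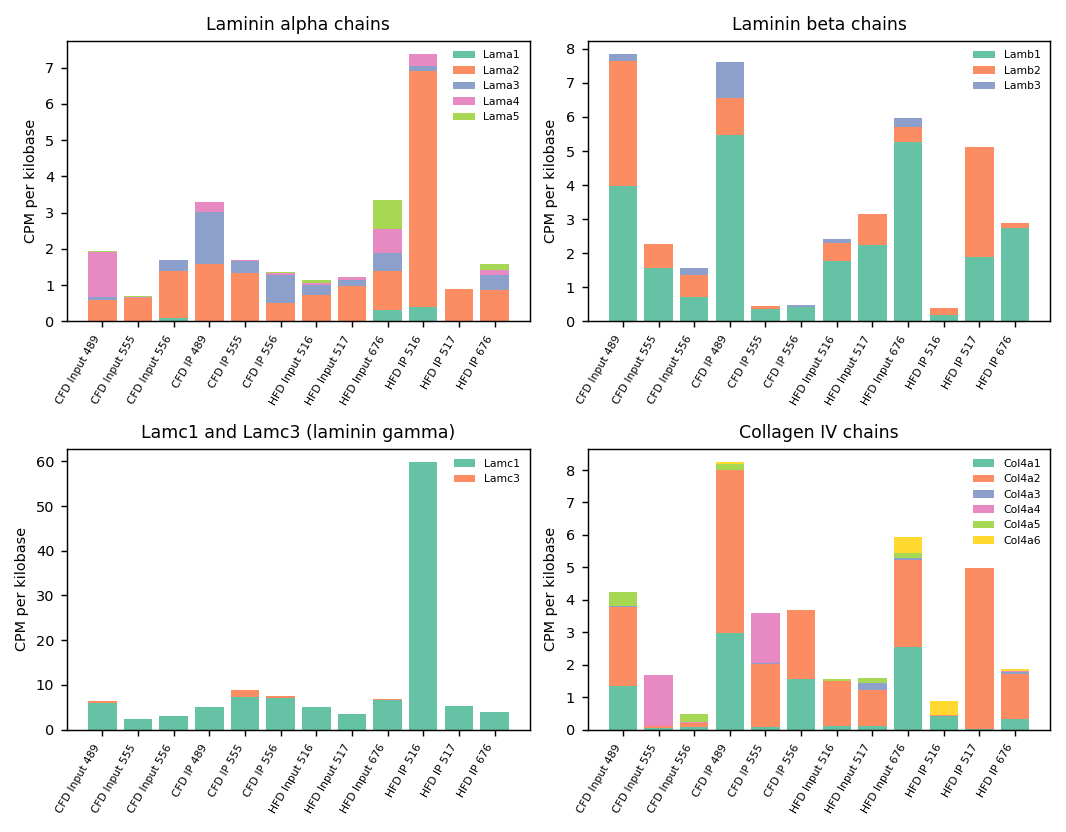
Level per kilobase of transcript (CPM per kilobase, linear axes that start at 0) of each laminin alpha and beta chain, of Lamc1 and Lamc3 and of each collagen IV chain, stacked by library. The panel of Lamc1 and Lamc3 shows the HFD IP of animal 516 at 59.8 CPM per kilobase against at most 8.92 in any other library, and the other panels show chains that change from library to library.

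Nidogens link the laminin and collagen IV networks. Nid1 (chr13:13437602-13512275) had 27, 21 and 395 counts in CFD input, 18, 110 and 127 in CFD IP, 94, 35 and 38 in HFD input and 210, 275 and 146 in HFD IP. In HFD the IP libraries lay above all inputs, at 6.93 ± 2.33 CPM against 1.74 ± 0.754 CPM (SD, n = 3 each), with a fitted log2 fold change of 1.99 (SE 1.57, unadjusted p = 0.218, edgeR adjusted p = 0.923). In CFD the groups overlapped, and 88.4% of the input level came from animal 556. Nid2 had 224, 37 and 11 counts in CFD input, 127, 3 and 0 in CFD IP, 4, 0 and 68 in HFD input and 2, 0 and 131 in HFD IP, so its higher libraries were those of animals 489 and 676 in both fractions.

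Perlecan, from Hspg2, is the heparan sulfate proteoglycan of basement membranes throughout the body. Hspg2 (chr4:137468751-137570630) had 43, 18 and 24 counts in CFD input, 38, 70 and 39 in CFD IP, 234, 130 and 243 in HFD input and 230, 92 and 146 in HFD IP. The 3 HFD inputs were above all CFD inputs, at 6.61 ± 1.97 CPM against 1.12 ± 0.640 CPM (SD, n = 3 each). On the log2 scale edgeR put this at 2.56 (SE 1.56, unadjusted p = 0.115, adjusted p = 1.0), and at 2.32 without animal 676. Among IP libraries the mean was 5.15 ± 2.54 CPM in HFD and 2.51 ± 0.762 CPM in CFD (SD, n = 3 each), and the ranges overlapped at 3.04 and 3.38 CPM. There edgeR gave 1.04 on the log2 scale (SE 1.49, adjusted p = 0.827), and 0.55 without animal 516. In CFD, IP lay above input without overlap, at a fitted log2 fold change of 1.16 (SE 1.49, edgeR adjusted p = 0.81). The gap was narrow, at 1.96 CPM (38 counts) in the IP and 1.84 CPM (43 counts) in the input of animal 489. That IP had fewer counts from a larger total, so the order rests on the TMM scaling.

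Agrin, from Agrn, is a proteoglycan that astrocyte endfeet deposit on vessels, and its level per kilobase was above that of Hspg2 in all 12 libraries. Agrn had 883, 314 and 741 counts in CFD input, 2187, 542 and 581 in CFD IP, 799, 509 and 2228 in HFD input and 1396, 552 and 702 in HFD IP. Within animals, IP differed from input by 1.57, 1.21 and 0.26 on the log2 scale (CPM + 0.5) under CFD, all above 0, and by 1.11, -0.02 and -1.86 under HFD. For CFD edgeR fitted 1.18 (SE 0.729, unadjusted p = 0.121, edgeR adjusted p = 0.531). Col15a1 and Col18a1, collagens of basement membrane zones, were sparse. Col15a1 had 312, 36 and 1 counts in CFD input and 2, 8 and 5 in CFD IP (log2 fold change -4.23, SE 2.25, edgeR adjusted p = 0.457, and -0.96 without animal 489, which held 91.1% of the input level), and its HFD IP counts of 8, 1 and 14 all lay under the HFD inputs of 24, 120 and 120 in CPM.

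Of the adhesive and matricellular glycoproteins, Sparc (chr11:55394159-55420080) had the smallest spread of any member. It had 6353, 8217 and 5771 counts in CFD input, 2109, 5283 and 2268 in CFD IP, 10797, 3451 and 3060 in HFD input and 10871, 5413 and 5159 in HFD IP. These were 257 ± 41.7, 164 ± 79.7, 178 ± 106 and 237 ± 121 CPM (SD, n = 3 each), and the groups overlapped in every comparison of diet and of fraction. The IP over input ratio was below 0 on the log2 scale in the 3 CFD animals and above 0 in the 3 HFD animals. The test of this difference, the interaction of diet and fraction, gave a log2 value of 1.07 (SE 0.600, unadjusted p = 0.0883, edgeR adjusted p = 0.896).

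Fibronectin, from Fn1, is a matrix glycoprotein that many cells assemble into fibrils. Fn1 had 444, 112 and 117 counts in CFD input, 302, 7 and 469 in CFD IP, 198, 27 and 827 in HFD input and 8, 282 and 1414 in HFD IP. Vitronectin, from Vtn, is an adhesive glycoprotein known in brain as a pericyte product. Vtn had 116, 13 and 207 counts in CFD input, 189, 7 and 6 in CFD IP, 962, 42 and 251 in HFD input and 6, 136 and 329 in HFD IP. The highest count was more than 10 times the lowest in 3 of the 4 groups for Fn1 and in all 4 for Vtn, and their adjusted p-values were at least 0.937 in both diet comparisons by edgeR.

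The fibrillar collagens I and III, the bulk of interstitial collagen, were low. Col1a2 had 573, 27 and 27 counts in CFD input, 68, 205 and 18 in CFD IP, 356, 58 and 51 in HFD input and 286, 7 and 245 in HFD IP. Col1a1, whose chain joins that of Col1a2 in collagen I, had 13, 119 and 121 counts in CFD input, 44, 8 and 15 in CFD IP, 248, 6 and 26 in HFD input and 12, 116 and 77 in HFD IP. Col3a1 had 18, 106 and 0 counts in CFD input, 82, 9 and 6 in CFD IP, 36, 3 and 2 in HFD input and 39, 5 and 0 in HFD IP. The CFD input of animal 489, highest in Col1a2, had 13 counts of Col1a1, while the HFD input of animal 516, highest in Col1a1 with 248, had 356 of Col1a2.

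Decorin, from Dcn, is a small proteoglycan that binds collagen fibrils. Dcn (chr10:97479500-97518163) had 596, 536 and 653 counts in CFD input, 332, 115 and 640 in CFD IP, 55, 106 and 346 in HFD input and 147, 349 and 521 in HFD IP. The CFD inputs were close together at 22.8 ± 3.46 CPM and all above the HFD inputs at 5.88 ± 5.67 CPM (SD, n = 3 each). By edgeR the log2 difference was -1.95 (SE 1.01, unadjusted p = 0.0673, adjusted p = 1.0), and -3.08 without animal 676, the highest of the HFD inputs. Among IP libraries the groups overlapped, at a log2 fold change of -0.85 (SE 0.99, edgeR adjusted p = 0.772) that was -0.06 without animal 556.

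Lumican, from Lum, is a related proteoglycan of meningeal and other connective tissue. Lum (chr10:97565501-97572703) had 19, 7 and 2 counts in CFD input, 4, 2 and 2 in CFD IP, 19, 0 and 72 in HFD input and 357, 60 and 91 in HFD IP. All 3 HFD IP libraries were above all CFD IP libraries, at 5.71 ± 5.78 CPM against 0.138 ± 0.0596 CPM (SD, n = 3 each), and 72.3% of the HFD IP level came from animal 516. On the log2 scale edgeR fitted 5.32 (SE 2.43, unadjusted p = 0.0394, adjusted p = 0.433), and 4.03 without that animal (adjusted p = 0.686). Lum is itself a gene of fibroblasts, and the summed level of 12 markers of perivascular and meningeal fibroblasts was 56.0 to 77.5 CPM in CFD IP and 61.6 to 376 CPM in HFD IP. Of these markers 11 were tested, with 7 fitted higher in HFD IP and 4 lower (51.3% and 48.3% of all genes). By edgeR 0 were called, and 2 were higher and 0 lower at an unadjusted p under 0.05 (6.08% and 4.82% of all genes). In HFD IP the sums were 61.6, 376 and 136 CPM in animals 516, 517 and 676, and in animal 517 10173 counts were of Igfbp2. Aspn and Slc22a6 were at 0 in all CFD IP libraries, and in HFD IP had 8, 0 and 7 counts and 0, 0 and 22. Slc6a13 went the other way, with 1, 3 and 18 counts in CFD IP and 0, 1 and 0 in HFD IP. Islr had 182, 10 and 113 counts in CFD IP and 11, 0 and 202 in HFD IP. Fmod had 81, 6 and 93 counts in CFD IP and 147, 19 and 23 in HFD IP. Ogn had 38, 46 and 22 counts in CFD IP and 94, 18 and 227 in HFD IP. The part of such cells in the Lum difference was not tested. Biglycan, from Bgn, had 115, 5 and 319 counts in CFD input, 184, 4 and 12 in CFD IP, 51, 172 and 53 in HFD input and 24, 4 and 153 in HFD IP, with no order between the groups.

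**Figure D3:**
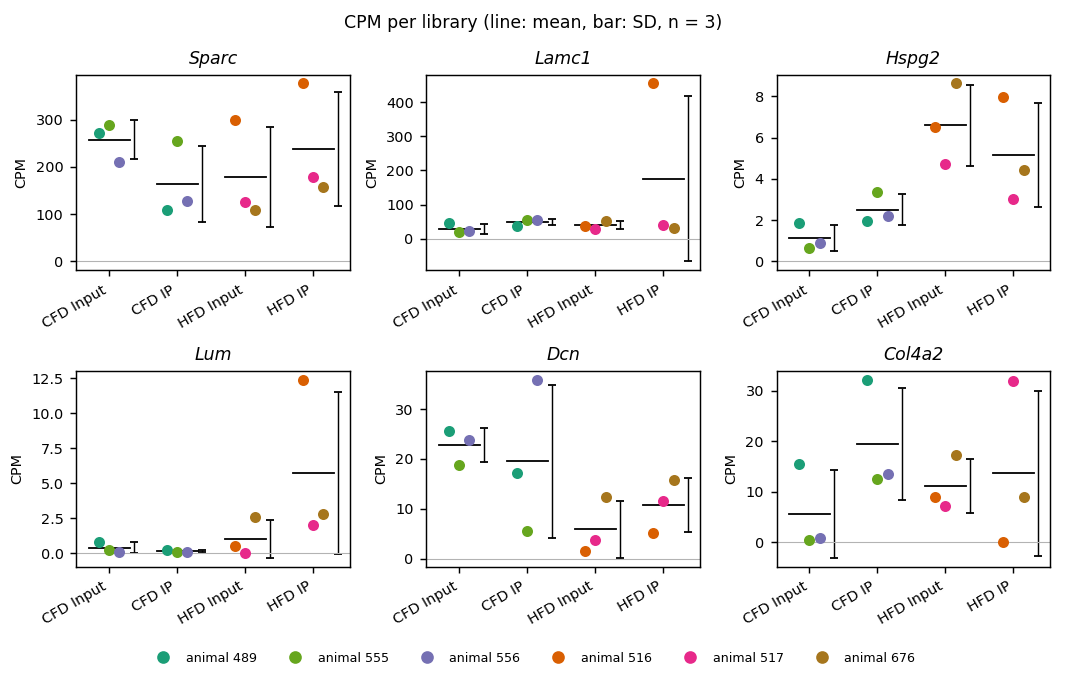
CPM of Sparc, Lamc1, Hspg2, Lum, Dcn and Col4a2 in each library (points, coloured by animal), with the mean (line) and SD (bar, n = 3) of each group; the axes are linear and differ between genes. Hspg2 is higher in the 3 HFD inputs than in the 3 CFD inputs and Dcn lower, Lum is higher in HFD IP than in CFD IP, and a single HFD IP library at 455.5 CPM sets the Lamc1 mean.

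Among the remaining collagens, Col22a1, known from tissue junctions, had the largest fitted change of any member between HFD IP and CFD IP. It had 0, 483 and 1 counts in CFD input, 0 in all CFD IP libraries, 0, 42 and 16 in HFD input and 41, 297 and 4 in HFD IP. HFD IP was at least 24.2-fold higher than CFD IP against the floor of 3 counts, or at least 4.94-fold without animal 517, which held 86.4% of the HFD IP level. The difference had an edgeR adjusted p = 0.365 (unadjusted p = 0.0138). CFD input was at least 36.4-fold higher than CFD IP, but 99.8% of that level came from animal 555 and no bound above 1 was left without it (edgeR adjusted p = 0.295).

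Col12a1, a collagen that binds fibrils, had 152, 297 and 466 counts in CFD IP and 72, 3 and 160 in HFD IP, without overlap in CPM (16.1 ± 9.25 against 2.49 ± 2.39 CPM, SD, n = 3 each; edgeR adjusted p = 0.5). Col16a1, of the same class, had 0, 1 and 0 counts in CFD input, 157, 42 and 33 in HFD input, 2, 0 and 1 in CFD IP and 0, 14 and 16 in HFD IP. Between the inputs edgeR gave an adjusted p = 1.0 (unadjusted p = 0.0262). Col20a1 had 660, 11 and 0 counts in CFD IP and 14, 6 and 48 in CFD input. Its fold change of 3.75 on the log2 scale (SE 1.95, edgeR adjusted p = 0.447) turned to -1.86 without animal 489.

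Col25a1 had 337 to 1819 counts in 11 libraries and 74 in the HFD IP of animal 516. Col19a1, known from interneurons, had 221, 289 and 243 counts in CFD input, 63, 888 and 32 in CFD IP, 188, 214 and 453 in HFD input and 0, 136 and 90 in HFD IP. In HFD its IP libraries lay under all inputs in CPM (edgeR adjusted p = 0.897). The HFD IP of animal 516, with the most Lamc1, thus had 0 counts of Col19a1 and the lowest counts of Col25a1 and Col4a2.

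The comparison of HFD IP with CFD IP asked which ribosome-bound transcripts differed with diet. No member of 52 had an edgeR adjusted p under 0.1, where 0.0209% of all genes tested were called higher and 0.0348% lower. The lowest adjusted p of a member was 0.365. At an unadjusted p under 0.05, edgeR had 3 members higher, Lamc1, Col22a1 and Lum, and 3 lower, Lamc3, Lamb3 and Col4a5, against 6.08% and 4.82% of all genes. Col22a1 and Lum were higher and Col12a1 lower without overlap of the groups, 3 of 52 members, where 5.94% of all genes were higher and 4.66% lower. The fitted change was above 0 for 22 of 52 members and for 51.3% of all genes. Members had a median of -0.34 on the log2 scale and all genes 0.03. With each animal left out in turn, the members' median ran from -0.78 without animal 676 to 0.22 without animal 489. It was -0.47 without animal 516. Of the 22 basement membrane genes tested, 9 were fitted higher and 13 lower, and of the 7 fibrillar collagens 4 and 3.

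DESeq2 in place of edgeR called Col22a1 and Lum higher, where it called 5.79% of 13295 genes, and edgeR without the filter on low counts called Lamc1, at an adjusted p of 0.0525, where it called 1.20% of 18302 genes. With Rn45s and Lars2 left out of the counts, edgeR called 0 members. The share of Rn45s moved with diet in the IP libraries, and its part in single members was not tested further.

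IP against input asked what the pulldown enriched. In CFD, 0 of 52 members passed by edgeR, where 0.174% of all genes were called higher and 0.0139% lower, and the lowest adjusted p was 0.295. At an unadjusted p under 0.05, edgeR had 0 members higher and 1 lower, Col22a1, against 5.94% and 5.88% of all genes, and DESeq2 called Col22a1 alone, where it called 6.03% of 13535 genes. Hspg2 and Lama3 were higher without overlap, 2 of 52, and 0 members were lower, against 6.43% and 8.72% of all genes. For both genes the gap was narrow and rests on the TMM scaling. Fitted values were above 0 for 24 members and for 49.1% of all genes, and the medians on the log2 scale were -0.14 and -0.01.

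In HFD, 0 of 52 members passed by edgeR, where 0.0139% of all genes were called higher and 0% lower. The lowest adjusted p was 0.583, for Lamc1. At an unadjusted p under 0.05, edgeR had 1 member higher, Lamc1, and 2 lower, Col4a5 and Lamb3, against 4.68% and 1.83% of all genes. DESeq2 also called 0, but gave an adjusted p to 1 member only. Nid1 was higher without overlap, and Col19a1, Col15a1, Col16a1 and Col4a5 lower, against 6.13% and 7.98% of all genes. Fitted values were above 0 for 21 members and for 49.4% of all genes, with medians of -0.40 and -0.01. With each animal left out in turn, the members' median ran from -0.66 without animal 516 to 0.18 without animal 676.

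Within animals, IP over input gave no member a higher level in 5 or 6 of the 6 animals. It was higher in 4 animals for 11 of the 53 members, in 3 for 17, in 2 for 12, in 1 for 12 and in 0 for 1, Col4a5. An animal with 0 counts in both fractions, as animal 555 for Col4a5, counted as not higher, which lowers the tally of sparse members. The same tally was not made over all genes, so it shows nothing particular to the members. The 11 were the basement membrane genes Lamc1, Nid1, Hspg2, Agrn, Col4a1 and Col4a2, and also Dcn, Lum, Col1a2, Col3a1 and Col20a1. Basement membrane genes made up 23 of the 53 members. The ratio for Lamc1 ran from -0.72 in animal 676 to 3.56 in animal 516.

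**Figure D4:**
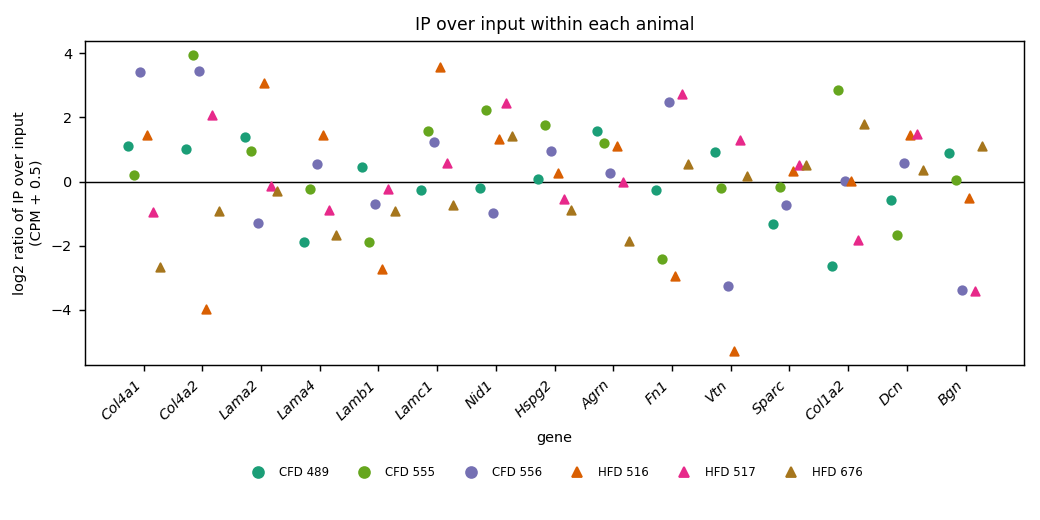
Log2 ratio of CPM + 0.5 in IP over that in the input of the same animal for 15 members, with CFD animals as circles and HFD animals as triangles. Points of most genes lie on both sides of 0, and for Sparc the 3 CFD animals lie below 0 and the 3 HFD animals above it.

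Between the inputs, which hold RNA of the whole white matter, 0 of 52 members passed by edgeR, and 0% of all genes were called in either direction. At an unadjusted p under 0.05, edgeR had 1 member higher in HFD, Col16a1, and 1 lower, Col4a4, against 1.09% and 0.941% of all genes, and DESeq2 called 0. Hspg2, Col8a1 and Col16a1 were higher and Dcn and Col9a2 lower without overlap, 5 of 52 members, where 6.05% of all genes were higher and 4.33% lower. Fitted values were above 0 for 26 members and below 0 for as many, against 49.7% and 50.2% of all genes, with medians of -0.04 and -0.00. The members' median depended on single animals, at 1.10 without animal 489 and -0.90 without animal 676.

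For the interaction of diet and fraction, 0 of 52 members passed by edgeR, as did 0% of all genes in either direction. At an unadjusted p under 0.05, edgeR had 1 member with a positive value, Col22a1, and 1 with a negative value, Lamb3, against 3.15% and 2.22% of all genes. Both rest on groups with 0 counts in every library, so the size of the fitted values is not a bound. The edgeR adjusted p was 0.829 for Col22a1, the lowest of any member. DESeq2 called Col22a1, where it called 0.877% of 13798 genes. The fitted value was positive for 25 members (52.2% of all genes), with medians of -0.07 and 0.06.

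**Figure D5:**
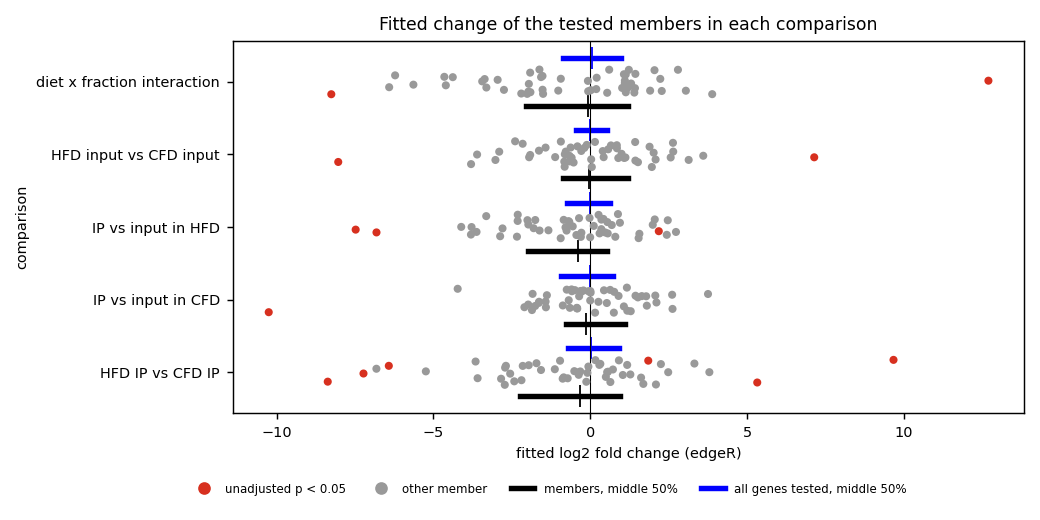
Fitted log2 fold change (edgeR) of each of the 52 tested members in the 5 comparisons, with unadjusted p under 0.05 in red; the bars mark the middle 50% of the members (black) and of all genes tested (blue), and the ticks their medians. The members scatter on both sides of 0 in every comparison and more widely than all genes, as in HFD IP against CFD IP with quartiles of -2.25 and 0.94 against -0.73 and 0.93.

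Some members were highest in both libraries of 1 animal. For 10 of 52 members (19.2%) the highest and the next highest library were the IP and the input of 1 animal, against 9.49% of all genes tested. Sparc was highest in both libraries of animal 516. Fn1, Lama5 and Col6a2 were highest in both libraries of animal 676, at 1414 and 827 counts for Fn1. Col12a1 was highest in both libraries of animal 556, though its input at 14.8 CPM was close to the IP of animal 555 at 14.3 CPM. Nid2 and Col6a5 were highest in both libraries of animal 489. Col6a4, a collagen VI chain, was highest in animal 555, with 631 counts in input and 154 in IP against at most 55 in any library of another animal, and Col4a4 was the other gene of that animal.

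The summed level of the members was 541 ± 111 CPM in CFD input, 515 ± 93.5 in CFD IP, 458 ± 147 in HFD input and 642 ± 353 in HFD IP (SD, n = 3 each). The last mean held the IP of animal 516 at 1049 CPM, with the other HFD IP libraries at 444 and 432. The groups overlapped in each comparison. Without Sparc the sums were 284 ± 92.4 CPM in CFD input, 352 ± 102 in CFD IP, 280 ± 148 in HFD input and 404 ± 232 in HFD IP (SD, n = 3 each). The order of CFD input and CFD IP was thus set by Sparc, and the groups again overlapped.

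Other genes of matrix assembly and binding were taken from lists of known genes. Of 25 genes of collagen processing and crosslinking, 21 were listed in the data under the symbol used. P3h1, P3h2, P3h3 and Colgalt1 were not listed under these symbols and so were not examined. Of the 21, 20 were tested and 0 passed in any of the 5 comparisons by edgeR. Between HFD IP and CFD IP, 4 of them were higher and 1 lower at an unadjusted p under 0.05 (6.08% and 4.82% of all genes), and 14 were fitted higher and 5 lower (51.3% and 48.3% of all genes). Their median was 1.52 on the log2 scale, and 0.03 without animal 676, where 10 were fitted higher and 9 lower. P4ha1, a subunit of the prolyl hydroxylase that stabilises the collagen helix, had 134, 437 and 121 counts in CFD IP and 6625, 155 and 785 in HFD IP (log2 fold change 2.89, SE 0.974, edgeR adjusted p = 0.344). Its highest library was the IP of animal 516, and without that animal the log2 fold change was 0.30 (SE 0.984, edgeR adjusted p = 0.959). The level of the chaperone gene Serpinh1 was 10, 0 and 23 counts against 17, 0 and 145. Of 19 matrix receptors 18 were tested and of 14 matrix proteases and inhibitors 11, and 0 passed in any comparison by edgeR. The receptors had 1 gene higher and 0 lower at an unadjusted p under 0.05 between HFD IP and CFD IP, and the proteases and inhibitors 0 and 0. Among receptors, Itgb1, the beta1 chain of laminin and collagen integrins, differed by 0.05 (SE 0.698) on the log2 scale in that comparison, and Dag1, the gene of dystroglycan, by -0.04 (SE 0.463).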

How the data were processed

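Counts per gene and library, not normalized, were taken as deposited by the authors, who aligned paired reads to mm10 with STAR. HTSeq is named in the processing notes with no role stated, the labels and methods name different library kits, and use of strand in counting is not given in the sources used here, so the 25 members that overlap another annotated gene are uncertain. Gene lengths were derived from the deposited FPKM, of which all 167607 values above 0 could be rebuilt from counts with 1 length a gene (relative tolerance 0.0001). The deposited normalized signal, and the log2 fold changes and p-values of the authors' own comparisons, were not used.

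Genes were kept by filterByExpr (minimum count 10, total 15), which left 14354 genes and 52 members, without Col4a6. In edgeR 4.0.16 (R 4.3.3), TMM scaling, glmQLFit on 4 group means over 12 libraries and glmQLFTest gave 5 contrasts, with Benjamini-Hochberg adjustment over all genes and calls at an adjusted p under 0.1. An SE is the log2 fold change over the square root of F. CPM use scaled library sizes. Bounds take 3 counts per library and cover counting error only. P-values rest on 3 animals a group, with a spread pooled over the 4 groups and shared in part between genes. The main fit takes the 12 libraries as independent and so ignores the pairing of IP and input. The fit was also run on simulated data with large changes placed in well expressed genes. That run does not show its power at the lower level of most members. Replicates differed beyond sampling noise (chi-square per degree of freedom at least 119).

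By their labels, IP and input with the same animal number came from 1 mouse. Their deviations correlated at 0.00641 to 0.190, with a median of 0.0351. Between animals the correlations ran from -0.104 to 0.0334, with a median of -0.0178. These ranges overlapped, so the correlations alone do not establish the pairing of each animal. Alternatives were RLE scaling, no filter, DESeq2 1.42.0, no Rn45s and Lars2, each animal left out, and a replicate block (limma 3.58.1 between diets). Named genes were a core list, members with an adjusted p under 0.1 and the 2 with the smallest p in each direction of a contrast, and some further members were chosen after their values were seen. Members and lists were chosen with earlier results of these data known. Coordinates are those of whole genes in RefSeq for GRCm38 (mm10), where all 53 symbols matched. Values of 1 member are not reported here.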

Additional observations from a re-analysis of the deposited data

Results flagged for a closer look

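The results in this part were picked because the log2 ratio of IP over input (CPM + 0.5) had one sign in all 3 CFD animals and the other in all 3 HFD animals. Of 53 members examined, 3 did so, all among the 52 tested (5.77%), against 2.45% of the 14354 genes tested, and groups of 3 were too small to be examined for stray samples. For Sparc the ratios were -1.32, -0.18 and -0.72 in CFD and 0.33, 0.52 and 0.53 in HFD, and the HFD mean exceeded the CFD mean by 1.20. For Lama3 they were 3.47, 3.01 and 1.14 in CFD and -0.63, -1.94 and -0.24 in HFD, a difference of -3.48. For Col12a1 they were 1.0, 0.92 and 0.80 in CFD and -1.18, -0.18 and -0.14 in HFD, a difference of -1.40. The test of the difference itself, the interaction of diet and fraction in edgeR, gave unadjusted p-values of 0.0883 for Sparc, 0.213 for Lama3 and 0.433 for Col12a1, with adjusted p-values of at least 0.896. With the animal as a fixed block the interaction for Sparc was 1.20 on the log2 scale (SE 0.464, unadjusted p = 0.0131, edgeR adjusted p = 1.0).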

How the results depend on the processing

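The count of members called was 0 in all 5 comparisons by edgeR, and stayed 0 with RLE scaling, without Rn45s and Lars2, and without each animal in turn (0 to 0). Because IP and input of an animal were paired, a replicate block was fitted, which also gave 0 in all 5 comparisons and changed no call. Without the filter on low counts edgeR called 1 member, Lamc1, in HFD IP against CFD IP and 1, again Lamc1, in HFD IP against input, at adjusted p-values of 0.0525 and 0.0190, where it called 1.20% and 0.432% of all genes. With each animal left out in turn, the log2 fold change of Lamc1 ran from -0.47 to 2.34 in HFD IP against CFD IP and from -0.13 to 2.92 in HFD IP against input, and that of Lama2 in HFD IP against input from -0.25 to 2.11, each lowest without animal 516. Col20a1 in CFD IP against input ran from -1.86, without animal 489, to 5.39. DESeq2 called 2 members in HFD IP against CFD IP, 1 in CFD IP against input and 1 in the interaction. The cause of these differences between fits was not tested. Among values of single members, of the number of members and of summed levels under the alternatives, 4 turned direction, 6 newly passed the threshold and 334 did neither. As 0 members were called in the main fit, no call could be lost. A fold change of a member that shrank but kept its sign counted among the 334, so this tally does not measure stability of size. With 10 counts required in 6 libraries rather than 3, 37 members remained of 53. Of 52 members tested, 28 were at 0 in at least 1 library. The library with the lowest total, 19567186 counts, had 5 of the 53 members at 0, and one with 31294504 counts had 14.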
